A study of Mus musculus with 10 samples.

Results

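The enzymes that build cholesterol and the proteins that sense and move sterols were examined in the livers of mice overexpressing Phf2, a histone demethylase. They comprise 29 genes chosen by name, of which 27 were measured among the 19938 genes that the arrays name by a single symbol. Acat2 is not analysed here, and the feature that lists Mbtps2 also lists a second gene and was left out. Total liver RNA came from 10 male C57BL/6J mice that received an adenovirus through the tail vein at 8 weeks of age and were examined fed, 3 weeks after the injection. The adenovirus encoded Phf2 in 5 mice and the fluorescent protein GFP in 5 control mice, so that both groups carried a viral vector and no uninjected mice were included. The sources used here do not give the promoter that drove Phf2 in this adenovirus. According to the methods, animals lacking overexpression were taken out of the cohort, and neither randomization nor blinding was applied. Each liver was hybridized to 1 Affymetrix Gene ST array, which reads a gene with many short probes, and a value is the log2 of the RMA signal deposited by the authors. Array medians lay between 5.06 and 5.18, and pairs of arrays correlated at 0.978 to 0.993 over all features. Precision is limited by how many arrays there are, and the p-values weigh a group difference against the spread among arrays. With 1 array per mouse, this spread holds differences between mice and between array preparations alike.

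Cholesterol is made from acetyl-CoA through mevalonate, farnesyl diphosphate, squalene and lanosterol, and the liver is a main site of this synthesis. SREBP transcription factors control the pathway. When sterols are scarce, Scap escorts SREBP2 from the endoplasmic reticulum to the Golgi, where proteases release its active part, and when sterols are plentiful, Insig proteins hold Scap back. SREBP1 drives the related enzymes of fatty acid synthesis in the same cells.

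In Phf2 mice 1 of the 27 genes was higher and 4 were lower than in GFP mice, while 22 did not pass the test (limma, adjusted p of 0.05 over all genes). The gene that rose was Fdps, farnesyl diphosphate synthase, and those that fell were Tm7sf2, Msmo1, Hsd17b7 and Ebp, which all act between lanosterol and cholesterol. Over all genes 9.67% passed the test, 5.43% upwards and 4.24% downwards, against 18.5% of the measured sterol genes. The median log2 difference, Phf2 minus GFP, was -0.06 for the sterol genes and -0.01 for all genes. The 5 changes were of modest size, with log2 differences between -0.63 and 0.49, and only Hsd17b7 among the 27 genes passed the study's thresholds of 1.5-fold and 0.05, taken here with limma's unadjusted p (3.54% of all genes did). Groups of arrays did not overlap for 3 of the 27 genes, against 9.08% of all genes. All Phf2 arrays were above for Fdps (4.71% of all genes) and below for Tm7sf2 and Hsd17b7 (4.36% of all genes). In bulk liver RNA, fewer cells of a type and less RNA per cell cannot be told apart.

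**Figure D1:**
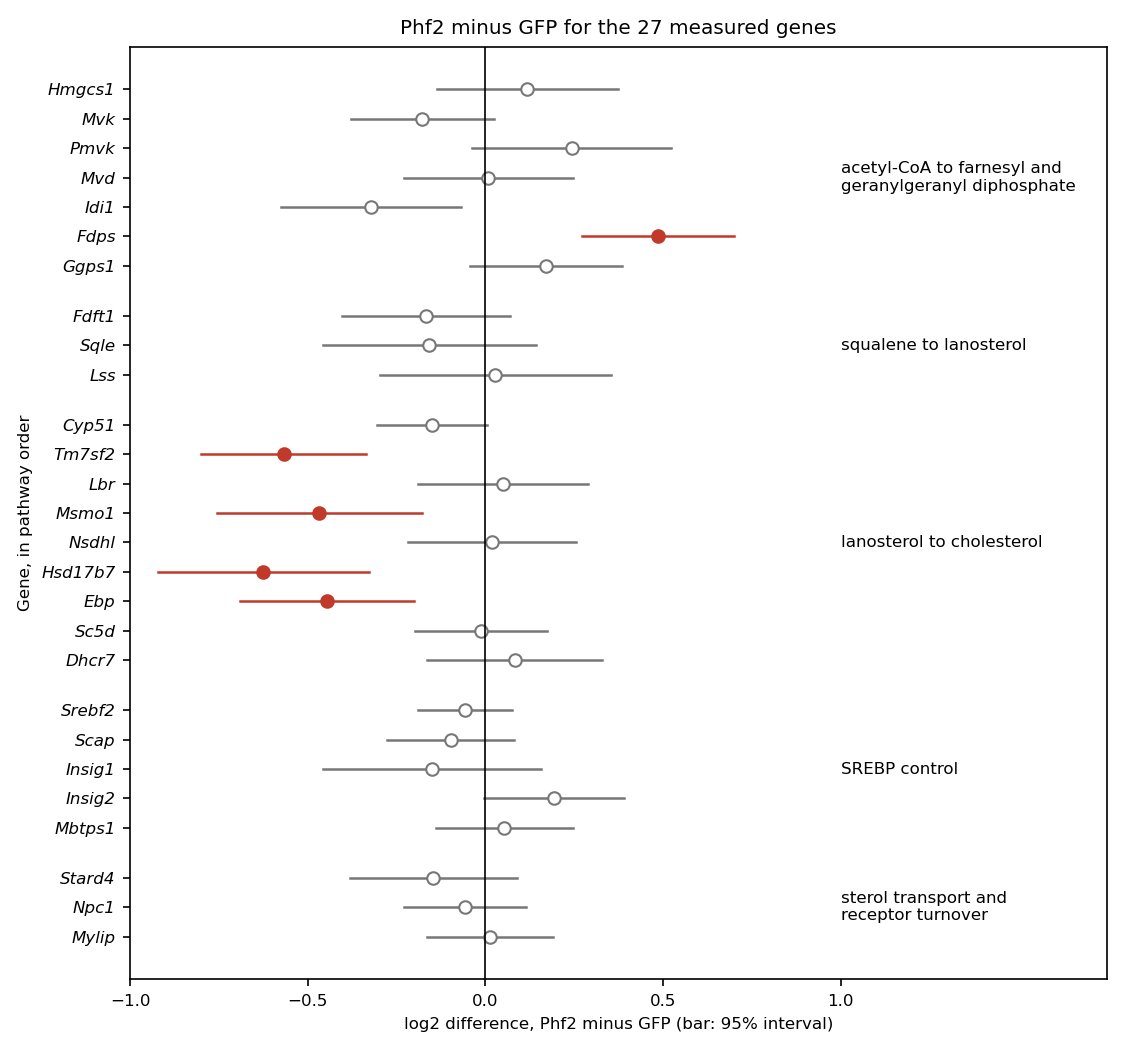
Log2 difference, Phf2 minus GFP (horizontal axis), of each of the 27 measured genes, in pathway order from top to bottom. Points are the differences of group means (n = 5 per group), bars the 95% intervals from limma, and red marks the genes that passed the test; 4 of the 5 red points lie among the 9 genes between lanosterol and cholesterol, from Hsd17b7 at -0.63 to Ebp at -0.45, and Fdps stands alone on the right at 0.49.

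Of the 7 measured genes from acetyl-CoA to the prenyl diphosphates, Fdps was higher and the other 6 were not called; the median log2 difference was 0.12. Fdps condenses isoprene units into farnesyl diphosphate, from which squalene, dolichol, ubiquinone and prenyl groups of proteins are made. Its log2 values (feature 10499483) were 10.62, 10.74, 10.31, 10.54 and 10.77 in GFP replicates 1 to 5 and 10.94, 11.17, 10.94, 11.07 and 11.29 in Phf2 replicates 1 to 5. All Phf2 arrays lay above all GFP arrays. The means were 10.60 ± 0.18 (SD, n = 5) and 11.08 ± 0.15 (SD, n = 5), a log2 difference of 0.49 (standard error 0.10, adjusted p = 0.00763 from limma), or 1.40-fold.

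The enzyme just before Fdps, the isomerase Idi1, leaned the other way without passing the test. Its log2 values were 8.92, 9.13, 8.97, 8.84 and 9.49 in GFP mice and 8.82, 8.60, 8.58, 8.83 and 8.90 in Phf2 mice. The Phf2 arrays overlapped the lower end of the GFP arrays, and GFP replicate 5 was the highest of all. The log2 difference was -0.32 (standard error 0.12, adjusted p = 0.115 from limma). A two-sided exact permutation of the arrays gave an unadjusted p of 0.0159. A second Idi1 feature (10403413) had a log2 difference of -0.35 and an adjusted p of 0.234 over all features.

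The other mevalonate enzymes spread around 0. The first enzyme measured, Hmgcs1, cytosolic HMG-CoA synthase, had a log2 difference of 0.12 with a 95% interval from -0.14 to 0.37. Mevalonate is phosphorylated by Mvk, at -0.18 (interval -0.38 to 0.02), and again by Pmvk, at 0.24 (interval -0.04 to 0.52). The decarboxylase Mvd was at 0.01 (interval -0.23 to 0.25), a sign that turned negative under further quantile normalization (-0.0322) and median centring (-0.0117). Ggps1 takes farnesyl diphosphate on to geranylgeranyl diphosphate, away from sterols, and had a log2 difference of 0.17 (interval -0.04 to 0.38).

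None of the 3 genes that carry farnesyl diphosphate to lanosterol passed the test, by limma or by the methods' t-test (the equivalent, for a pair of groups, of the per-gene analysis of variance in the methods, with adjustment over genes added here), and 0 of them had an unadjusted p under 0.05. Squalene synthase, Fdft1, which commits carbon to sterols, averaged 10.24 ± 0.16 in the GFP group and 10.08 ± 0.22 in the Phf2 group (SD, n = 5 each), a log2 difference of -0.17 (interval -0.40 to 0.07). Its second feature (10412909) had a difference of -0.09. Squalene epoxidase, Sqle, a rate-limiting oxygenase of the pathway, had log2 values from 8.92 to 9.64 in GFP mice and from 8.83 to 9.44 in Phf2 mice, so that the groups overlapped widely. The Sqle difference was -0.16 (interval -0.46 to 0.14), and that of Lss, which folds the epoxide into lanosterol, was 0.03 (interval -0.30 to 0.35) and -0.0003 under further quantile normalization.

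Between lanosterol and cholesterol 4 of 9 genes were lower in Phf2 mice and 5 were not called, around a median log2 difference of -0.15. Hsd17b7 reduces the ketone left when methyl groups are removed from the sterol ring. Its log2 values (feature 10359917) were 8.67, 8.96, 8.56, 8.63 and 9.11 in GFP mice and 8.31, 7.85, 7.97, 8.16 and 8.52 in Phf2 mice. The highest Phf2 array, replicate 5, lay just below the lowest GFP array, replicate 3. This is a log2 difference of -0.63 (standard error 0.14, adjusted p = 0.0120 from limma), or 1.54-fold lower.

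Tm7sf2 is a sterol reductase that acts on the product of the demethylase Cyp51. It read 8.15, 8.18, 7.81, 7.66 and 7.94 in GFP mice and 7.47, 7.27, 7.27, 7.31 and 7.59 in Phf2 mice (feature 10465342, log2 values). The groups did not overlap, with Phf2 replicate 5 again the highest of its group. The log2 difference was -0.57 (standard error 0.11, adjusted p = 0.00503 from limma), or 1.48-fold lower. Lbr, a lamin-binding protein of the nuclear envelope with the same sterol reductase activity, had a log2 difference of 0.05 (interval -0.19 to 0.29). The difference between Tm7sf2 and Lbr within each array had a mean of 1.17 ± 0.31 in GFP mice and 0.56 ± 0.35 in Phf2 mice (SD, n = 5 each), which is a difference of -0.62. By exact permutation of the arrays, two-sided, p was 0.0397, and 0.119 after adjustment over the 3 pairs of related genes that could be tested, so that unequal change of these reductases was not established.

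Msmo1 oxidizes the methyl groups that are then removed by the complex containing Hsd17b7. Its log2 values (feature 10578916) were 9.82, 9.77, 9.45, 9.57 and 9.74 in GFP mice and 9.43, 9.00, 8.89, 9.07 and 9.61 in Phf2 mice. Phf2 replicates 2, 3 and 4 lay below all GFP arrays, replicate 1 just below the lowest of them and replicate 5 among them. The log2 difference was -0.47 (standard error 0.13, adjusted p = 0.0441 from limma). Ebp shifts a double bond in the ring, and it read 9.92, 10.05, 9.84, 9.87 and 9.71 in GFP mice and 9.61, 9.33, 9.21, 9.23 and 9.78 in Phf2 mice (feature 10603485, log2 values). Again only Phf2 replicate 5 reached into the GFP range. The Ebp difference was -0.45 (standard error 0.11, adjusted p = 0.0260 from limma).

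**Figure D2:**
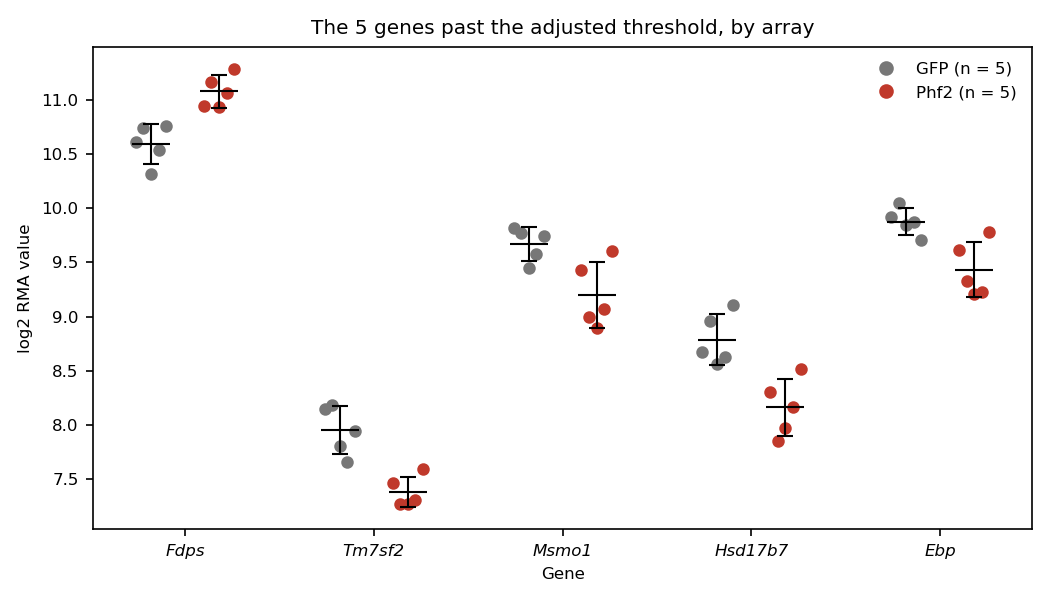
The 5 genes that passed the test, with the log2 RMA value of every array on the vertical axis. Grey points are the 5 GFP arrays and red points the 5 Phf2 arrays, in replicate order from left to right, with long bars at the means and whiskers for the SD; the groups are apart for Fdps, Tm7sf2 and Hsd17b7, and Phf2 replicates 1 and 5 are the highest red points of each of the 4 lowered genes.

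Calls for Msmo1 and Ebp were the least stable. The methods' t-test left 1 lower gene, Tm7sf2, besides Fdps, and adjustment over all features of the table left Tm7sf2 and Hsd17b7. Msmo1 was lost without any of GFP replicates 1, 2, 4 and 5 and Phf2 replicates 2, 3 and 4, and Ebp without any of GFP replicates 1, 2 and 4 and Phf2 replicates 2, 3 and 4, which left 2 or 3 lower genes. With the replicate number as a block the adjusted p of Ebp was 0.0621.

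The remaining genes of this stretch had small differences. Lanosterol demethylase, Cyp51, had a log2 difference of -0.15 (interval -0.31 to 0.005), with GFP values from 9.62 to 9.88 and Phf2 values from 9.51 to 9.74. Nsdhl, the dehydrogenase that works between Msmo1 and Hsd17b7, had a difference of 0.02 (interval -0.22 to 0.25) and -0.0011 under median centring. For the desaturase Sc5d it was -0.01 (interval -0.20 to 0.17) and 0.0133 under further quantile normalization. Dhcr7, the reductase of the last step, had a difference of 0.08 (interval -0.16 to 0.33).

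The stretch upstream of the start site is shown for the 4 lowered genes, and for Hmgcs1 and Insig1 as SREBP-responsive genes that did not pass the test. Sequences are those of RefSeq on GRCm38.p6, cover the 250 bases before the annotated start and run 5′ to 3′ on the strand of the gene. Capitals mark 3 motifs searched on both strands, namely CCAAT or its reverse complement ATTGG (bound by NF-Y, a partner of SREBP), the E-box CACGTG (which ChREBP and clock factors can bind), and TCACNCCAC, a form of the sterol regulatory element.
Hsd17b7 (chr1:169969206-169969455, minus strand): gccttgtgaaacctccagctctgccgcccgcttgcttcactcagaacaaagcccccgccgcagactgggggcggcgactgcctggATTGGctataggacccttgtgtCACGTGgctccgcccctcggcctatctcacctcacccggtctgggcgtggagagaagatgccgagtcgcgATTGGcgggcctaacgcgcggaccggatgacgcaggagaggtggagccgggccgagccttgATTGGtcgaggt
Tm7sf2 (chr19:6067851-6068100, minus strand): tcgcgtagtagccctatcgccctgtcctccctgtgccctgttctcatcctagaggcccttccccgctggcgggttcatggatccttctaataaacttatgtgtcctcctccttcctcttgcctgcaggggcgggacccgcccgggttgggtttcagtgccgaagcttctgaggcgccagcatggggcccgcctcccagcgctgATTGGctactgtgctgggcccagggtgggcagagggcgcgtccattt
Msmo1 (chr8:64733579-64733828, minus strand): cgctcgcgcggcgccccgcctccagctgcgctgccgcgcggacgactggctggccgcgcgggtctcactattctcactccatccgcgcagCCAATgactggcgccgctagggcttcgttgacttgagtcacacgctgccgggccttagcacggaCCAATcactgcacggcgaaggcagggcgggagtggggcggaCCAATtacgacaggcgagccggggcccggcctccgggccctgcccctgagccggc
Ebp (chrX:8193513-8193762, minus strand): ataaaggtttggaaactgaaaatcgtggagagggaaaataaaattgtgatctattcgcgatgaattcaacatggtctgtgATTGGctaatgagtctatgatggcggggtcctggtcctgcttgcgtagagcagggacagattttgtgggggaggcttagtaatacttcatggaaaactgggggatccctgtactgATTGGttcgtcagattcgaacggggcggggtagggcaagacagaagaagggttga
Hmgcs1 (chr13:119690101-119690350, plus strand): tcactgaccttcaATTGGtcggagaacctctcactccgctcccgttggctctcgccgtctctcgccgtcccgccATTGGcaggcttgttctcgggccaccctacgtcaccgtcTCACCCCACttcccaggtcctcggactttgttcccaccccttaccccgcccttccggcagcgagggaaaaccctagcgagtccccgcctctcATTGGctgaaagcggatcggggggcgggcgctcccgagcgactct
Insig1 (chr5:28071162-28071411, plus strand): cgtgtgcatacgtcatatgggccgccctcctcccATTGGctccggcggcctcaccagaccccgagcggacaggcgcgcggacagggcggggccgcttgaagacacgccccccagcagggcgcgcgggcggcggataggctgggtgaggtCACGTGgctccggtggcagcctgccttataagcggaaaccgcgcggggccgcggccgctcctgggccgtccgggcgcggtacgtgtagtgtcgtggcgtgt
All 4 lowered genes hold at least 1 CCAAT box, with 3 in Hsd17b7, 3 in Msmo1, 2 in Ebp and 1 in Tm7sf2, and Hmgcs1 and Insig1, which did not pass the test, hold 3 and 1. Of 29 genes, 24 had an entry, with 30 promoters in all, and 20 of these promoters (66.7%) hold the box, against 33.8% of 32851 mouse promoters. The E-box stands in the promoter of Hsd17b7, 143 bases before the start, and in those of Insig1, Sc5d, Dhcr7 and Scap, which is 5 of 30 promoters against 6.02% of all. The sterol regulatory element in this form stands in Hmgcs1 alone, 137 bases before the start, and in 1.05% of all promoters. These letters are matches and not shown sites, and Fdps, Fdft1, Sqle, Stard4 and Npc1 had no entry.

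None of the 5 measured genes that control SREBP passed the test, by limma or by the methods' t-test, and 0 had an unadjusted limma p under 0.05. Srebf2, which encodes SREBP2, read 6.74, 6.82, 6.68, 6.65 and 6.87 in GFP mice and 6.67, 6.78, 6.67, 6.68 and 6.66 in Phf2 mice. The groups overlapped, and the log2 difference of -0.06 had a standard error of 0.06, the smallest among the 27 genes (interval -0.19 to 0.08, adjusted p = 0.662 from limma). Srebf1 had a difference of 0.09 (standard error 0.10, adjusted p = 0.701), and the change of Srebf2 minus Srebf1 was -0.14 (two-sided exact permutation test, p = 0.286, adjusted p = 0.286). Scap was at -0.10 (interval -0.28 to 0.08) and the Golgi protease Mbtps1, which makes the first cut of SREBP, at 0.05 (interval -0.14 to 0.25).

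Insig1 is itself switched on by SREBP and is often read as a gauge of its activity. Its log2 values were 10.16, 10.27, 10.04, 9.85 and 10.52 in GFP mice and 10.01, 9.91, 9.80, 9.88 and 10.48 in Phf2 mice. The groups overlapped, with replicate 5 the highest of each. The log2 difference was -0.15 (interval -0.46 to 0.16, adjusted p = 0.608 from limma). The level of Insig2 in liver depends on insulin and feeding rather than on SREBP. Insig2 read 10.70, 11.06, 11.20, 11.14 and 11.09 in GFP mice and 11.26, 11.34, 11.15, 11.26 and 11.14 in Phf2 mice. GFP replicate 1 was the lowest by far, and the difference was 0.19 (interval -0.004 to 0.39, adjusted p = 0.237 from limma). Two-sided exact permutation gave Insig2 an unadjusted p of 0.0397. The change of Insig1 minus Insig2 was -0.34 (two-sided exact permutation test, p = 0.103, adjusted p = 0.155 over 3 pairs).

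The genes of sterol transport and receptor turnover did not pass the test either, with 0 of 3 called by limma or the methods' t-test and 0 at an unadjusted p under 0.05. Stard4, a cytosolic sterol carrier under SREBP2 control, had a log2 difference of -0.15 (interval -0.38 to 0.09). Npc1, which exports cholesterol from lysosomes, was at -0.06 (interval -0.23 to 0.12). Mylip, a ubiquitin ligase that LXR induces and that marks lipoprotein receptors for breakdown, was at 0.01 (interval -0.16 to 0.19), at -0.0267 under further quantile normalization and at -0.0063 under median centring. Across the 22 genes that did not pass, 11 differences were positive and 11 negative, adjusted p ran from 0.115 to 0.980, and all 22 of the 95% intervals stayed within 1.5-fold in either direction, between -0.57 and 0.52 on the log2 scale.

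Arrays of a group differed from each other in the same sense for many of these genes. Among the GFP arrays, replicate 5 was the highest for 13 of the 27 genes and replicate 2 for 8, while replicate 4 was the lowest for 11 and replicate 3 for 9. In the Phf2 group, replicate 5 was the highest for 16 genes and replicate 3 the lowest for 15. The mean over the 27 genes ran from 8.54 to 8.79 on the GFP arrays and from 8.46 to 8.74 on the Phf2 arrays, so that the groups overlapped. For the 9 genes after lanosterol the mean ran from 8.93 to 9.21 in GFP mice, and was 8.87, 8.73, 8.71, 8.83 and 9.03 in Phf2 replicates 1 to 5.

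**Figure D3:**
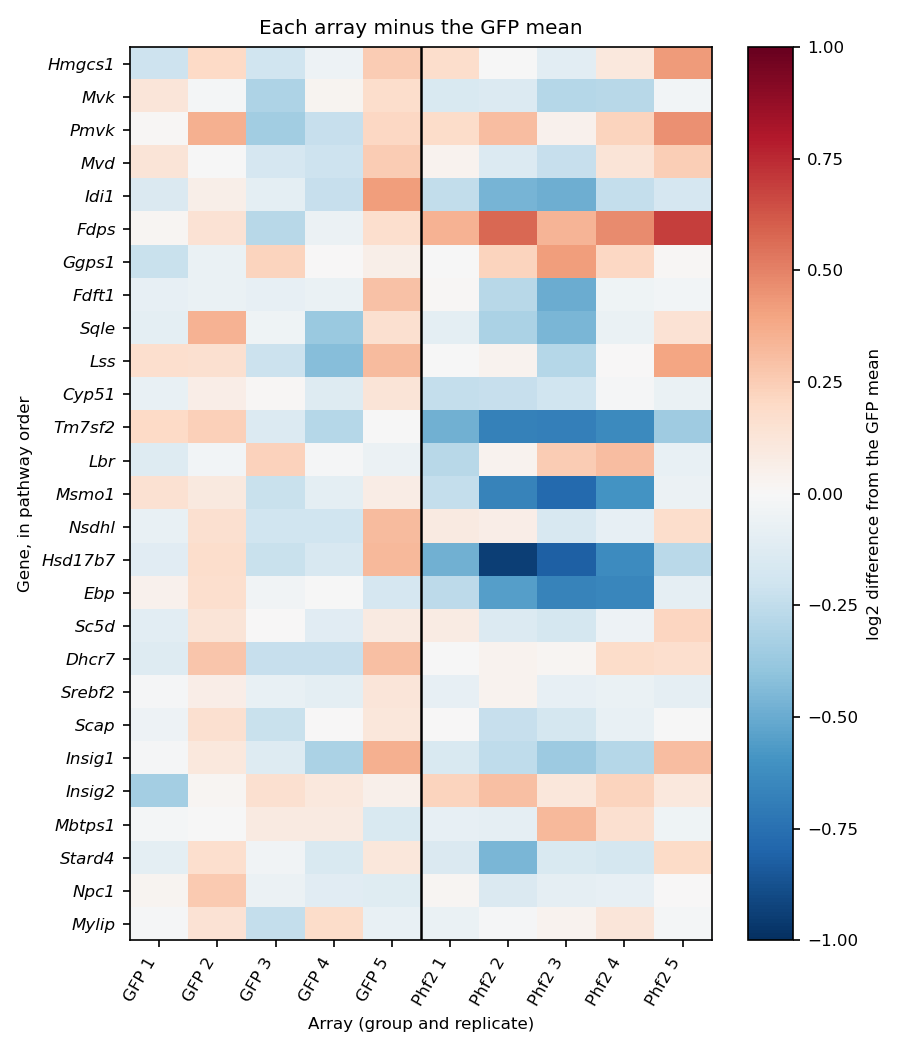
Log2 value of each gene (rows, in pathway order) on each array (columns, GFP left and Phf2 right of the line) minus the mean of the 5 GFP arrays. Red is above and blue below that mean; Fdps is red in every Phf2 array, Tm7sf2, Msmo1, Hsd17b7 and Ebp are blue in every Phf2 array and palest in replicate 5, and GFP replicates 2 and 5 are redder than the other GFP arrays in many rows.

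Marker genes of cell types also differed between arrays. Counts of called markers are to be read against the 9.67% of all genes that passed. Of all 19938 genes, 4423 had an unadjusted limma p under 0.05. Among the GFP arrays, replicate 4 had the lowest mean of the sterol genes (8.54) and the highest of the hepatocyte markers (12.55). GFP replicate 5 had the highest mean of the sterol genes (8.79), with hepatocyte markers at 12.54. In the Phf2 group both means were highest in replicate 5 (8.74 and 12.41) and lowest in replicate 3 (8.46 and 12.02). Of 6 hepatocyte markers 3 were lower in Phf2 mice, and their mean ran from 12.47 to 12.55 on GFP arrays but was 12.38, 12.18, 12.02, 12.03 and 12.41 in Phf2 replicates 1 to 5. Most of that difference came from Tat, at -0.83, and Cps1, at -0.57, while Apoa1 was at -0.21, Ahsg at -0.18, Ttr at -0.06 and Alb at -0.01 (the last 3 not called). All 6 T and NK cell markers were higher, with a mean of 5.33 to 5.84 in GFP mice and 6.50 to 7.30 in Phf2 mice, lowest in replicates 5 and 1. Of 8 macrophage markers 1 was higher and 3 were lower (means of 7.73 to 8.41 and 7.60 to 7.95). Among the other lists, 1 of 5 endothelial markers was higher, 1 of 2 erythroid markers was lower, and 0 of 5 stellate, 0 of 4 bile duct and 0 of 3 B cell markers passed the test (3, 1 and 0 of them at an unadjusted limma p under 0.05). The part of these cells in the sterol results was not tested. None of 8 pancreatic enzyme genes differed between the groups (0 at an unadjusted p under 0.05), but their mean was 12.22 in GFP replicate 1, 10.70 in Phf2 replicate 2 and 10.11 in Phf2 replicate 3, while the other 7 arrays lay between 5.92 and 8.86. With this mean as a covariate all 5 calls stood. Without these 3 arrays 0 of the 27 genes passed (595 of all genes did, against 1929), with log2 differences of 0.51 for Fdps, -0.49 for Hsd17b7, -0.44 for Tm7sf2, -0.33 for Ebp and -0.26 for Msmo1.

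Neighbouring pathways were counted as fixed lists, each to be read against the 9.67% of all genes that passed. Of 12 genes of the fatty acid arm of SREBP, 6 rose, 1 fell and 5, among them Srebf1 itself, were not called (58.3% called). The median log2 difference was 0.70. The list is only named after SREBP, and the paper proposes that Phf2 acts on lipogenic genes as a co-activator of ChREBP. Which factor raised these genes was not tested here. Elovl6, the elongase of palmitate, had a log2 difference of 2.31 (adjusted p = 1.47e-06 from limma) and Acaca, acetyl-CoA carboxylase, one of 1.92 (adjusted p = 1.47e-06), beside 0.49 for Fdps, the only sterol gene that rose. The gene that fell was the desaturase Fads1, at -0.33 (adjusted p = 0.0317). Fads1 lost its call when GFP replicate 1 or 3, or Phf2 replicate 2, 3 or 4, was left out. The difference between the fatty acid and sterol genes was not tested. A further list held 13 measured genes of the isoprenoid branches outside sterols, namely dolichol, ubiquinone and the prenylation and later processing of proteins. Of these, 0 passed by limma or the methods' t-test and 3 had an unadjusted limma p under 0.05, with a median of -0.02. The smallest p belonged to Fnta, a subunit of protein farnesyltransferase, at 0.25 (adjusted p = 0.0596), and Rabggta, of the enzyme that prenylates Rab proteins, at -0.29 (adjusted p = 0.0757).

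Of 9 genes that degrade sterol-regulated proteins or handle SREBP and Scap, 1 was higher and 1 was lower (22.2% called). Rnf145, a ubiquitin ligase that LXR induces and that acts on Scap, read 6.47, 6.46, 6.56, 6.38 and 6.40 in GFP mice and 6.81, 7.04, 7.04, 7.10 and 6.95 in Phf2 mice. The groups were well apart, with a log2 difference of 0.54 (standard error 0.07, adjusted p = 0.000403 from limma). Paqr3, a Golgi protein that binds Scap and SREBP, read 5.79, 5.73, 5.40, 5.50 and 5.84 in GFP mice and 5.16, 5.35, 5.27, 4.93 and 5.29 in Phf2 mice. No Phf2 array reached the GFP range, a difference of -0.45 (standard error 0.10, adjusted p = 0.0154). Paqr3 did not pass by the methods' t-test (adjusted p = 0.0557). Of 8 electron donors and partners of sterol enzymes 1 was higher (12.5%, near the share of all genes), Cyb5r3, the reductase of cytochrome b5, at 0.29 (standard error 0.07, adjusted p = 0.0130).

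Of 13 genes of LXR, cholesterol efflux and cholesterol esters, 3 fell and 10 were not called (23.1% called), around a median log2 difference of -0.01. Stard5, a cytosolic sterol carrier, had a log2 difference of -0.57 (standard error 0.13, adjusted p = 0.0158 from limma, and 0.0667 by the methods' t-test). Scarb1, the HDL receptor, was at -0.45 (standard error 0.08, adjusted p = 0.00330), and Lcat, which esterifies cholesterol in plasma and was named after its value was seen, at -0.41 (standard error 0.07, adjusted p = 0.00371). The LXR targets Abca1, Abcg1, Abcg5 and Abcg8, also chosen with their values known, had differences of -0.01, 0.13, -0.11 and -0.23 and did not pass. Of 2 ketogenic genes, the mitochondrial thiolase Acat1 and Bdh1, 0 passed by limma or the methods' t-test. Both had a difference of 0.09 with an unadjusted limma p above 0.05. By two-sided exact permutation the unadjusted p was 0.0317 for Acat1 and 0.325 for Bdh1. Of 11 clock genes, which set the daily rhythm of sterol synthesis, 1 was higher (9.09%, near the share of all genes), Nr1d1, the repressor Rev-erbα, at 1.03 (standard error 0.12, adjusted p = 0.000163 from limma). In this list 4 genes had an unadjusted limma p under 0.05, as did 4423 of all 19938 genes. Besides Nr1d1 they were Nr1d2 at 0.34, Arntl at -0.17 and Clock at -0.22, which were not called. The part of clock genes in the sterol results was not tested.

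**Figure D4:**
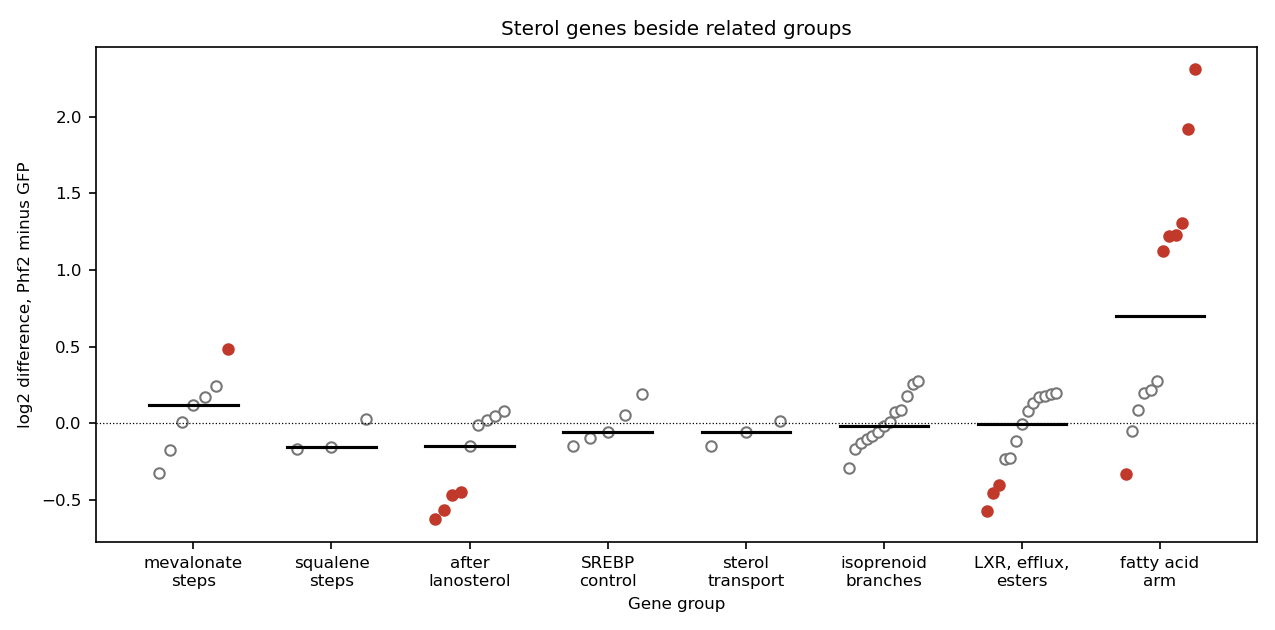
Genes of the 5 sterol groups and of 3 related lists, each at its log2 difference between Phf2 and GFP mice (Phf2 minus GFP, vertical axis). Red filled points are genes that passed the test, open points those that did not, and a bar is the median; it stands at 0.70 for the fatty acid arm and at -0.15 for the genes after lanosterol.

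The array does not check the group labels through Phf2 itself. Its feature (10409076) read 6.32 to 6.54 in GFP mice and 6.27 to 6.58 in Phf2 mice, a log2 difference of -0.05 (adjusted p = 0.751 from limma). The methods describe Phf2 cloned into a plasmid from cDNA of a human cell line. They do not state the species of the sequence in the adenovirus. The sources used here do not say whether this mouse feature covers the injected coding sequence.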

How the data were processed

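Liver RNA of 5 Phf2 and 5 GFP mice was hybridized to Affymetrix Gene ST arrays, and the authors normalized them with RMA and deposited the resulting log2 values (35556 features). RMA and Partek are the tools in the submitters' processing notes, and the sources used here give neither their versions nor the build. Although a human array is named in the methods, the features belong to a mouse Gene ST annotation. Samples were grouped by their titles. Features with 1 symbol (21789) were kept, of which 21698 were matched by gene number to GRCm38.p6 for current names. A gene was represented by its feature with the highest mean, which left 19938 genes. RMA equalizes the arrays and shrinks the changes of dim features.

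The comparison used lmFit and eBayes of limma 3.58.1 (R 4.3.3) without covariates. P-values were adjusted by Benjamini-Hochberg over the 19938 genes, and 0.05 was the threshold. Unadjusted p-values are those of limma unless another test is named. Per-array differences of related genes were compared by exact permutation, for which 0.00794 is the smallest p. Genes named are the 27 measured members, genes of the pairs, Phf2, and in each related list the called genes that moved most (up to 2 upwards and 2 downwards), or else the 2 with the smallest p. The pipeline was tested on simulated data. The members and lists were chosen with earlier results of these data known.

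Alternatives were the methods' t-test, array weights, an intensity trend with robust prior, quantile normalization, median centring, removal of dim features, use of all features or of their mean per gene, the replicate block, other thresholds and leaving out each array. For the arrays the methods name an analysis of variance per gene with Tukey comparisons and mention no adjustment over genes. The methods' t-test stands for it here with Benjamini-Hochberg adjustment added. Uses of the pancreatic markers, and this t-test at 1.5-fold with an unadjusted p of 0.05, were added after the data were seen.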

Additional observations from a re-analysis of the deposited data

Results flagged for a closer look

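In 6 of 84 checks of a gene in a group of 5 arrays, 1 array stood apart from the other 4, by a gap to its neighbour of over 0.71 of the group's range. Chance flags about 1 in 20 such groups. Squalene synthase, Fdft1, was highest in GFP replicate 5 at a log2 value of 10.54, against 10.18 for the next GFP array. Insig2 was lowest in GFP replicate 1 at 10.70, against 11.06. Srebf2 was highest in Phf2 replicate 2 at 6.78, against 6.68. Outside the sterol genes, Acat1 was highest in GFP replicate 3 at 9.65, Bdh1 lowest in the same array at 6.83, and Acaca highest in Phf2 replicate 4 at 10.84.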

How the results depend on the processing

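The number of sterol genes called higher was 1 whichever single array was left out and under the other alternatives, except at the study's 1.5-fold with an unadjusted p of 0.05 (0, by limma or the methods' t-test) and in the fit without the 3 arrays highest in pancreatic markers (0). The number called lower, all between lanosterol and cholesterol, was 4, and ranged from 2 to 4 when single arrays were left out. It was 1 by the methods' t-test, 2 over all features, 1 at an adjusted p of 0.01, 1 at the study's thresholds by either test and 0 without the 3 arrays. Fewer arrays or more features enter some of these fits, and the cause was not tested otherwise. No called gene changed direction in any of these fits. The count of lower genes of the fatty acid arm was 1, from 0 to 1 when single arrays were left out, and 0 by the methods' t-test, over all features, with the replicate block, at an adjusted p of 0.01, at the study's thresholds by either test and without the 3 arrays. The 6 higher genes of that arm were 6 or 7 throughout. Without the 3 arrays the called genes of the LXR list fell from 3 to 0, those that handle SREBP had 1 higher and 0 lower, and the electron donors had 0. The methods' t-test also left 0 lower among those that handle SREBP. At the study's thresholds, by either test, these 3 lists had 0 called, and at an adjusted p of 0.01 the LXR list had 2 lower, those that handle SREBP 1 higher and 0 lower, and the electron donors 0. The genes of the isoprenoid branches, with 0 called, had 1 higher with the replicate block, without dim features, without GFP replicate 3 or without Phf2 replicate 5. They had 1 lower with quantile normalization or without GFP replicate 4.

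Differences near 0 changed sign. Mvd was at -0.0153 with array weights, -0.0322 with quantile normalization and -0.0117 with median centring, and ran from -0.0507 to 0.0713 without single arrays. Lss was at -0.0003 with quantile normalization (-0.0786 to 0.107 without single arrays), Nsdhl at -0.0011 with median centring (-0.0319 to 0.0984), and Mylip at -0.0267 and -0.0063 under these normalizations (-0.0457 to 0.0583). Sc5d was at 0.0133 with quantile normalization and 0.0553 without the 3 arrays (-0.0698 to 0.0284 without single arrays), and Lbr at -0.0452 without the 3 arrays (-0.0134 to 0.132). Mbtps1 ran from -0.0137 to 0.0892 and Npc1 from -0.0872 to 0.0095 without single arrays.

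Over all genes the replicate numbers gave no sign of pairing, since deviations of same-numbered arrays correlated at -0.29 to -0.04. For the 27 sterol genes, the mean deviation was 0.14 (GFP) and 0.16 (Phf2) in replicate 5, and -0.11 in both groups in replicate 3. In replicates 1, 2 and 4 the groups differed in sign. The check over all genes does not settle pairing for the sterol genes. With the replicate block 3 sterol genes were lower and 1 higher, and 1514 of all genes passed against 1929. No pair of related genes passed under any alternative.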

Other observations

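Fdps, the sterol gene that rose, lies next to 2 other genes that were higher in Phf2 mice. The next protein-coding gene on that side in the mouse annotation is Pklr, the liver pyruvate kinase, with a log2 difference of 0.80 (standard error 0.11, adjusted p = 0.000663 from limma), and beyond it lies Hcn3, an ion channel gene, with 0.46 (standard error 0.10, adjusted p = 0.0135). On the other side, Rusc1, the nearest, had a difference of 0.06 (adjusted p = 0.729). Msmo1 lies beside Klhl2, an adaptor of a ubiquitin ligase, which was lower in Phf2 mice with a difference of -0.67 (standard error 0.09, adjusted p = 0.000664), and Cpe on its other side had a difference of 0.75 (standard error 0.45, adjusted p = 0.377). Neighbours of Tm7sf2 within 3 genes on either side did not pass the test, and Vps51, which overlaps it, had a difference of 0.09 (adjusted p = 0.529). Around Hsd17b7 only Rgs5, the third gene away, was called, at 0.42 (adjusted p = 0.00309), and none was called around Ebp. In all, 4 of 28 measured neighbours of the 5 genes passed, against 9.67% of all genes. These neighbours were looked up after the values were seen.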
